A study of Mus musculus with 4 samples.

Results

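Fibroblasts of small intestinal adenomas were taken as the 217 cells, of 12349 cells kept in 4 single-cell RNA sequencing libraries, that carried the RNA of matrix genes and lacked that of epithelial, endothelial and blood cells. A barcode was kept with at least 1000 unique molecular identifiers (UMIs, each counting 1 captured RNA molecule), at least 200 genes and at most 20% mitochondrial UMIs. A kept cell was called a fibroblast when at least 3 of the 5 genes Dcn, Col1a1, Col1a2, Col3a1 and Bgn were detected with at least 5 UMIs in all, when Epcam, Krt8 and Krt19 together held under 0.2% of its UMIs, when Kdr and Plvap together had at most 1 UMI and when Ptprc had 0. The tumors came from C57BL/6 mice aged 11 weeks that carry the Min mutation in 1 copy of the tumor suppressor Apc, and all samples were labelled male. ApcMin mice (ApcMin/+ with Lef1 +/+) were compared with VApcMinL mice (ApcMin/+ with Lef1 fl/fl and Villin-Cre), 2 libraries per group, each from several pooled tumors that were dissociated without a sort. The Villin promoter drives Cre in the intestinal epithelium and not in stroma, so Lef1 is not deleted by design in the fibroblasts themselves. Both replicate 1 libraries used version 2 of the 10x Genomics 3′ kit, and both replicate 2 libraries used version 3. Each pair of values below gives replicate 1 first.

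Intestinal fibroblasts lie under the epithelium and build the collagen and proteoglycan scaffold of the mucosa. They also make the Wnt ligands, BMPs, BMP antagonists and EGF family ligands that position stem cells at the crypt base and differentiated cells on the villus. In tumors they can take on matrix-remodelling and inflammatory states, with secretion of metalloproteinases, interleukins and chemokines.

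The fibroblast counts were 99 and 41 cells in the ApcMin libraries and 60 and 17 cells in the VApcMinL libraries. Their median depths were 6671 and 13583 UMIs in ApcMin and 5731.5 and 9394 UMIs in VApcMinL, and their UMIs summed to between 159999 and 719682 per library. Several checks went against the labels. Xist, the noncoding RNA of the inactive X chromosome in females (chromosome X, 103460366 to 103483254), had 0 UMIs in the fibroblasts of both ApcMin libraries, but 436 UMIs in VApcMinL replicate 1 and 59 in VApcMinL replicate 2. The 4 Y-linked genes Ddx3y, Uty, Eif2s3y and Kdm5d had 85 and 81 UMIs in the ApcMin libraries, 0 in VApcMinL replicate 1 and 12 in VApcMinL replicate 2. Of the 17 fibroblasts of VApcMinL replicate 2, 5 had only Xist, 5 only Y-linked RNA, 2 had both and 5 neither. Lef1, the targeted gene, was also not lower in the epithelial cells of the libraries labelled VApcMinL. Kept cells at or above the epithelial limit had 4.82 and 9.25 CPM (UMIs of a gene per 1000000 UMIs of the same cells) in ApcMin and 10.3 and 15.2 CPM in VApcMinL. The counts are of 3′ ends, so this does not show whether an internal part of the gene was missing. Groups are therefore named by their labels throughout, and sex and genotype cannot be told apart. No fibroblast barcode was shared between libraries. The kit 2 libraries shared 18 kept barcodes, and 1 fibroblast barcode of ApcMin replicate 1 was also among the kept cells of VApcMinL replicate 2.

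The 5 chosen markers were detected in most of the fibroblasts by construction, with Col3a1 in 214, Bgn in 213, Col1a2 in 210, Col1a1 in 207 and Dcn in 180 of 217 cells. In all, 163 cells had all 5, 47 had 4 and 7 had 3. Near the limit, 4 members had 5 to 9 marker UMIs, and 2 other cells that met the remaining criteria had 3 or 4 marker UMIs from 3 genes. A further 45 cells met the marker criteria but were left out for more than 1 UMI of Kdr and Plvap. Lineage genes that the rule did not use were present in all libraries. Vim, an intermediate filament of mesenchymal cells, had 1141 and 1167 CPM in the ApcMin libraries and 843 and 2075 CPM in the VApcMinL libraries. Pdgfra, the receptor for platelet-derived growth factor that marks intestinal fibroblasts, had 519.7 and 875 CPM in the ApcMin libraries and 508 and 900.0 CPM in the VApcMinL libraries, so its levels overlapped between the groups.

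The rule also admitted cells with the genes of other mural and contractile cells. Rgs5, a regulator of G protein signalling and a pericyte marker, had 1316 and 2717 CPM in the ApcMin libraries and 1472 and 4288 CPM in the VApcMinL libraries. It was detected in 68 fibroblasts and Pdgfra in 129, and only 17 cells had both. Pdgfra was detected in 25.0% of the Rgs5-positive cells and in 75.2% of the others, and the order was the same within each library. The label therefore covers Pdgfra-positive fibroblasts together with pericyte-like cells. The mesothelial list of 7 genes summed to at most 43.1 CPM, with Msln, Upk3b, Lrrn4 and Muc16 at 0. The 12 endothelial genes outside the rule were all detected, with 4 at a mean of 20 CPM or more. They summed to 321 and 389.6 CPM in the ApcMin libraries and 250.1 and 419 CPM in the VApcMinL libraries, above the other kept cells of the same library each time (189 to 289 CPM).

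RNA of other cell types was counted in these cells, and whether it came from free RNA or from doublets was not tested. The list of 24 epithelial genes outside the rule summed to 1579.9 and 1093 CPM in the ApcMin libraries and 1838 and 1406 CPM in the VApcMinL libraries. Jchain, the joining chain of secreted antibodies, had 560.0 and 23.4 CPM in the ApcMin libraries and 92.8 and 6.25 CPM in the VApcMinL libraries, and in ApcMin replicate 1 it was detected in 97 of 99 fibroblasts. In barcodes with 10 to 100 UMIs, which hold mostly free RNA, Jchain had 7290 and 299 CPM in ApcMin and 2010 and 234 CPM in VApcMinL, in the same order of libraries within each kit. Haemoglobin and other red blood cell genes summed to 11334 CPM in ApcMin replicate 1, where 1 cell held 93.9% of their UMIs, and to at most 36.1 CPM in the other libraries.

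Fibroblasts made up a smaller share of the cells in the VApcMinL library of each kit. They were 3.54% of 2797 kept cells (exact 95% binomial interval 2.89 to 4.29%) in ApcMin replicate 1 and 2.03% of 2959 (1.55 to 2.60%) in VApcMinL replicate 1. With kit 3 they were 1.91% of 2145 cells (1.38 to 2.58%) in ApcMin and 0.382% of 4448 (0.223 to 0.611%) in VApcMinL. Averaged over libraries, the ApcMin share was 2.73% ± 1.15 (SD, n = 2). That of VApcMinL was 1.20% ± 1.16 (SD, n = 2). The difference, VApcMinL minus ApcMin, came to -1.52 percentage points and was nearly the same in each kit pair (-1.51 for kit 2, -1.53 for kit 3). The values of the groups overlapped, and the two-sided exact permutation test gave p = 0.667, where 0.333 is the smallest p that 2 against 2 libraries allow.

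Among the kept cells under the epithelial limit, the fibroblast share was 8.91% of 1111 and 15.0% of 273 cells in ApcMin, and 8.08% of 743 and 3.53% of 481 cells in VApcMinL. The groups did not overlap, but nearly all of the difference came from kit 3 (-11.5 points, against -0.836 for kit 2). The exact permutation p was 0.333, the smallest possible. The kit 2 difference was within the counting intervals, which were 7.30 to 10.7% in ApcMin replicate 1 and 6.22 to 10.3% in VApcMinL replicate 1. How many tumors or how much stroma each dissociation released is not known from the counts, so a share describes the cell suspension. The intervals cover counting error only.

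**Figure D1:**
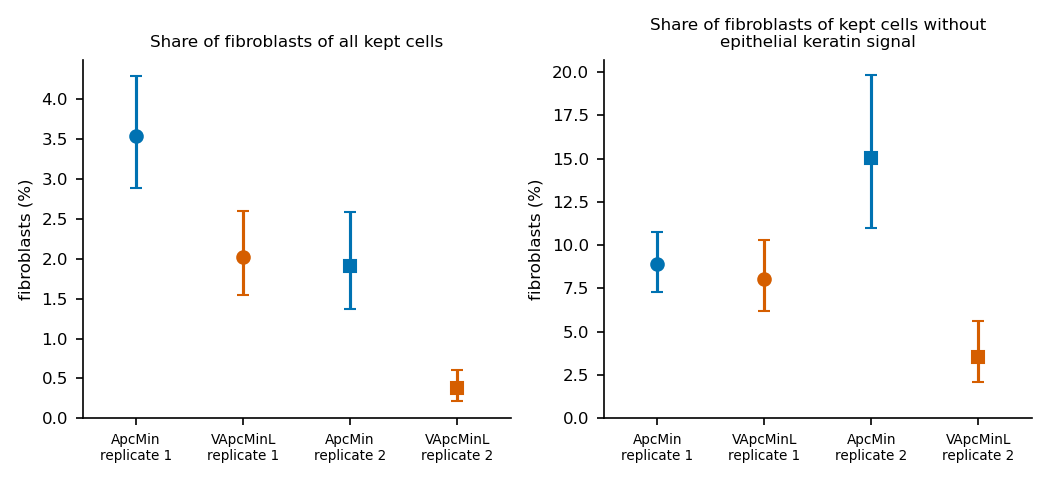
Share of fibroblasts in each library, in percent of all kept cells (left) and of kept cells under the epithelial limit (right). Points are libraries, circles kit 2 and squares kit 3, and bars are exact 95% binomial intervals. VApcMinL replicate 2, at 0.382% and 3.53%, was the lowest in both panels.

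The genes that stood furthest above the other kept cells were secreted signals and matrix genes. This is a description without a test, since the cells were chosen by matrix RNA. Inhba, which encodes the subunit of activin A, a ligand of the transforming growth factor family (chromosome 13, 16011851 to 16031621), led with 611 and 1135 CPM in the ApcMin libraries and 799 and 1519 CPM in the VApcMinL libraries. It was 253-fold or more above the other kept cells in each library, with 1 CPM added to both values. Il11, an interleukin 6 family cytokine that is known to act on tumor epithelium (chromosome 7, 4772373 to 4782859), had 536 and 337 CPM in the ApcMin libraries and 389 and 538 CPM in the VApcMinL libraries, at least 240-fold above the other cells. In VApcMinL replicate 2, 1 cell held 89.5% of the 86 Il11 UMIs. Mmp10, the metalloproteinase stromelysin 2 (chromosome 9, 7502352 to 7510240), had 3706 and 1820.0 CPM in the ApcMin libraries and 5682 and 1950.0 CPM in the VApcMinL libraries, so it was higher in both kit 2 libraries than in both kit 3 libraries. Il1rl1, the receptor of the alarmin interleukin 33, had 1428 and 1537 CPM in the ApcMin libraries and 1977 and 1606 CPM in the VApcMinL libraries, and its 4 libraries lay within a narrower range than those of Mmp10.

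Other genes among the 30 that led were the chemokine Ccl11, the contractile genes Tagln and Cald1, the Wnt ligand Wnt5a, the Wnt inhibitor Sfrp1, Bmp4, the EGF family ligand Nrg1, the fibroblast growth factor Fgf7, the acute phase gene Hp and the collagens Col5a1, Col5a2, Col6a1, Col6a2, Col6a3 and Col12a1. All 30 had at least 92.5-fold more CPM than the other kept cells in every library. In the same libraries, endothelial cells had at most 3 CPM of Il11 and 0 CPM of Inhba, although the kit 3 libraries held only 8 and 6 endothelial cells. Kept cells with Ptprc, a gene of blood cells, had more, with 7.96 to 46.0 CPM of Inhba and up to 6.27 CPM of Il11 and 197 CPM of Il1rl1. Cells thinned to 1000 UMIs each showed Inhba in 22.2% and 39.0% of the ApcMin and in 33.3% and 41.2% of the VApcMinL fibroblasts. Il11 was found in 12.1% and 9.76% and in 11.7% and 11.8%, respectively. In epithelial cells, which lie at median depths of 15322 to 29350.0 UMIs before thinning, the highest shares were 0% for Inhba and 0.617% for Il11.

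**Figure D2:**
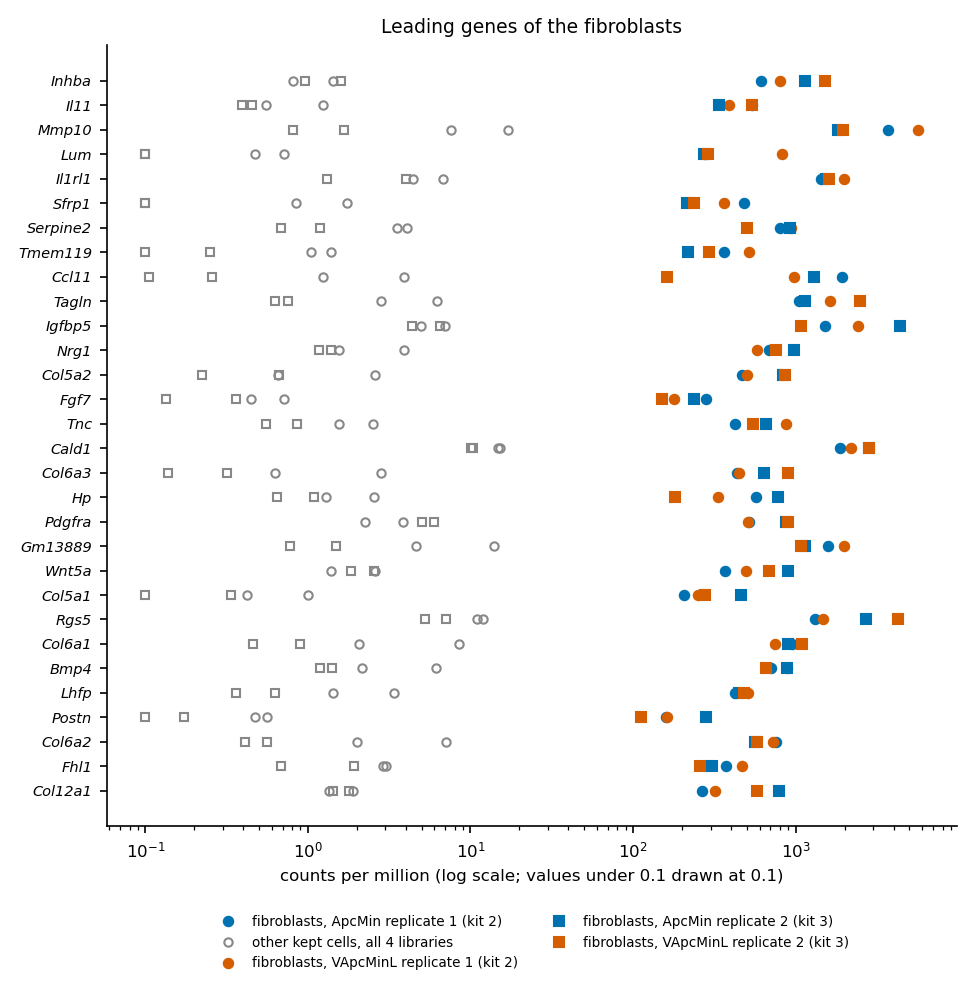
Level of the 30 leading genes in the fibroblasts of each library (filled) and in the other kept cells of the same libraries (open grey), in CPM on a log axis. Blue is ApcMin, orange VApcMinL, circles kit 2 and squares kit 3. In the fibroblasts the levels ran from 113 CPM (Postn) to 5682 CPM (Mmp10).

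Promoters of the leading genes were searched for the AP-1 motif TGANTCA, the site of Fos and Jun dimers. The search was prompted by Il11 and Mmp10, both secreted genes of an activated state. Fos and Jun RNA was detected in these cells (163 to 1854 CPM and 483 to 1439.5 CPM across libraries). It was not a steady mark of them, since immediate early and stress genes stood above the other kept cells in replicate 1 only. Their sums there were 12850.1 against 6451 CPM in ApcMin and 9106 against 5073 CPM in VApcMinL. In replicate 2 they were lower, at 3835 against 4877 CPM in ApcMin and 4000 against 4850 CPM in VApcMinL. Of the 26 RefSeq promoters found for 19 of the 30 genes, 4 held the motif (15.4%), those of Cald1, Col6a1, Il11 and Mmp10, against 7.81% of all 32851 promoters of 300 bases. Il11 and Mmp10 prompted the search and are among the 4, so these shares cannot show an excess of the motif. The search is a description of letters and does not show a binding site. The promoters are those of GRCm38.p6, from 250 bases before to 50 bases after the start site, with the motif in capitals. In Il11 it begins 98 bases and in Mmp10 63 bases before the start site. Of the 2 Il11 promoters only the 1 shown held it, and the other, at the outer start site of the gene, did not.
Il11, chr7:4778092-4778391, minus strand: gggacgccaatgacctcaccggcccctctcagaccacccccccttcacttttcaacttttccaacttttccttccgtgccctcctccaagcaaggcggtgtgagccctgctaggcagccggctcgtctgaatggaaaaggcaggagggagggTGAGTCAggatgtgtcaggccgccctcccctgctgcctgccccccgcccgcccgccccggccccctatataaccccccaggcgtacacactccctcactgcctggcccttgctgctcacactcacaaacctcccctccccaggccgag
Mmp10, chr9:7502092-7502391, plus strand: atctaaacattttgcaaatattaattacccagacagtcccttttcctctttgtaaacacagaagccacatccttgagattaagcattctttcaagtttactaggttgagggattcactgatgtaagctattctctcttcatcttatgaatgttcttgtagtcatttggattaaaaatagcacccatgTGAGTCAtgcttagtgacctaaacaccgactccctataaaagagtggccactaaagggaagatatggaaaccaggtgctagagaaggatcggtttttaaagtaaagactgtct

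Genes that signal to the epithelium were led by a few ligands. Of 25 Wnt ligands, agonists and inhibitors, 19 were detected and 8 reached a mean of 20 CPM. Wnt5a, a ligand of noncanonical Wnt signalling, had 367 and 896 CPM in the ApcMin libraries and 492 and 681 CPM in the VApcMinL libraries, and both kit 3 values were above both kit 2 values. Sfrp1, a secreted Wnt inhibitor, had 478 and 215 CPM in the ApcMin libraries and 364 and 238 CPM in the VApcMinL libraries. Rspo3, the R-spondin that sustains crypt stem cells, was low, at 18.1 and 66.7 CPM in the ApcMin libraries and 59.3 and 0 CPM in the VApcMinL libraries, and its 0 in VApcMinL replicate 2 allows up to 18.8 CPM. Lef1 itself had 11 UMIs in 10 of the 217 fibroblasts, and the Wnt effector Tcf7l2 had 30.6 to 38.7 CPM.

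Among 22 genes of BMP signalling all were detected. Bmp4 had 700.3 and 878 CPM in the ApcMin libraries and 879 and 656 CPM in the VApcMinL libraries, with overlapping groups. Bmp2 had 417 and 290.4 CPM in the ApcMin libraries and 139 and 263 CPM in the VApcMinL libraries, lower in both VApcMinL libraries but by little in kit 3. No gene of this list was called by the edgeR test described below. Grem1, the BMP antagonist that keeps the crypt base free of BMP signals, had 203 and 438 CPM in the ApcMin libraries and 173 and 18.8 CPM in the VApcMinL libraries, and in VApcMinL replicate 2 it rested on 3 UMIs in 1 cell. Id3, a BMP target, had 1848 and 1394 CPM in the ApcMin libraries and 1807 and 1088 CPM in the VApcMinL libraries.

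Growth factors for the epithelium included Nrg1, a ligand of ErbB3, with 681 and 972 CPM in the ApcMin libraries and 577 and 756 CPM in the VApcMinL libraries. Ereg, the EGF receptor ligand epiregulin, had 777 and 1367 CPM in the ApcMin libraries and 307 and 163 CPM in the VApcMinL libraries. Nrg1 was thus present at like levels in all libraries, whereas Ereg was lower in both VApcMinL libraries than in both ApcMin libraries. Igf1, insulin-like growth factor 1, had 509.9 and 743 CPM in the ApcMin libraries and 449 and 400.0 CPM in the VApcMinL libraries, and Fgf7 had 279 and 238 CPM in the ApcMin libraries and 178 and 150 CPM in the VApcMinL libraries. Both had lower values in VApcMinL without overlap, as had 10.8% of all tested genes. Their log2 differences were -0.57 and -0.71 (SE 0.26 and 0.26), and neither passed the edgeR test described below (adjusted p = 1.00 for both).

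Collagens outside the rule stood higher in both kit 3 libraries than in both kit 2 libraries. The 21 collagens other than the markers summed to 6429 and 11418 CPM in the ApcMin libraries and 5891 and 11481 CPM in the VApcMinL libraries. Col4a1, a chain of basement membrane collagen, had 946 and 2783 CPM in the ApcMin libraries and 675 and 3119 CPM in the VApcMinL libraries. Sparc, a collagen-binding glycoprotein, was the highest of the matrix glycoproteins at 4479.8 and 5902 CPM in the ApcMin libraries and 6603 and 4919 CPM in the VApcMinL libraries. The cancer-associated fibroblast matrix list of 20 genes summed to 11184 and 14214 CPM in the ApcMin libraries and 14484 and 14481 CPM in the VApcMinL libraries. Of the proteases, Mmp13, the interstitial collagenase of mice, had 711 and 592 CPM in the ApcMin libraries and 889 and 950.0 CPM in the VApcMinL libraries, higher in both VApcMinL libraries. Adamdec1, a metalloprotease of intestinal stroma, had 700.3 and 806 CPM in the ApcMin libraries and 382 and 306 CPM in the VApcMinL libraries, lower in both. In VApcMinL replicate 2, 1 cell held 71.1% of the 152 Mmp13 UMIs, and 1 cell held 61.2% of the 49 Adamdec1 UMIs. Neither gene passed the edgeR test described below.

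The fibroblasts split into 7 groups when clustered on 2000 variable genes and 15 components, and 2 of the names below describe cells other than fibroblasts in the strict sense. The number of groups changed with the resolution, from 4 at 0.2 to 7 at 0.5 and 8 at 0.8 and 1.0, and the leading genes of a group are what defined it. Names were given only from marker lists. Group 1 (30 cells) was trophocyte-like, with Mgp, Dpt, Sfrp1, Cd34 and C3 in the lead and 290 CPM of Rspo3 and 1242 CPM of Grem1. Trophocytes are stromal cells below the crypts that make stem cell factors such as Grem1. The name rests on the genes of that list only. Pdgfra, which is not on it, had its highest level of the 7 groups in group 1. Group 2 (27 cells), left unnamed, was led by Itih5, Igfbp3, Cxcl10 and Wnt4 and had 1791 CPM of Aldh1a3, a retinoic acid synthesis enzyme.

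Group 3, the largest with 63 cells, stayed unnamed because none of the genes at its top was on a list used for names. Haemoglobin genes from 1 cell led it, followed by Tacr1 and Glp2r, the receptors for substance P and for glucagon-like peptide 2. The group was not ranked again without the haemoglobin genes. It had 997 CPM of Pdgfra, 1019 CPM of Bmp4, 343 CPM of Bmp5, 1116 CPM of Nrg1 and 2040 CPM of Il1rl1. Group 5 (27 cells), also unnamed, was led by U90926, Dio2, Mmp13, Ptgs2 and Il11. All of its cells had Il11, Inhba, Il1rl1, Ereg, Bmp4 and Pdgfra, and it held the highest levels of the 7 groups for Bmp2 (1419 CPM), Nrg1 (1857 CPM), Fgf7 (1117 CPM) and Saa3 (4803 CPM).

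Group 4 (45 cells) was pericyte-like, with Ndufa4l2, Higd1b, Rgs5 and Notch3 in the lead. It had 8761 CPM of Rgs5, 3751 CPM of Col4a1 and 53.7 CPM of Pdgfra, whose 19 UMIs came from 1 cell, and Adamdec1 was at 0. Group 6 (11 cells) was smooth muscle- and myofibroblast-like, led by Hhip, Cnn1, Npnt and Myh11, with 9126 CPM of Acta2, smooth muscle actin, and 0 CPM of Pdgfra. Group 7 (14 cells) was led by Top2a and other genes of cycling cells and was not named. The median depth of the groups ranged from 3444 UMIs in group 6 to 12459 UMIs in group 7. Group 4 held 14 and 13 fibroblasts of the ApcMin libraries and 10 and 8 of the VApcMinL libraries, which was 14.1% and 31.7% against 16.7% and 47.1%. Group 5 held 17 and 5 fibroblasts of the ApcMin libraries (17.2% and 12.2%) and 4 and 1 of the VApcMinL libraries (6.67% and 5.88%). Each gene was centred within its library before clustering, so group shares are not strictly comparable between libraries.

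Variation between cells was widest for a pericyte marker, an acute phase gene and matrix-related genes. In cells thinned to 1000 UMIs, the ratio of variance to mean (1 where only counting noise acts) was taken in the 3 libraries with at least 20 fibroblasts. Apart from Malat1, a nuclear RNA, the highest ranks were held by Rgs5 (8.66 to 11.5), Saa3 (5.15 to 34.9), Igfbp5 (6.44 to 15.9), Mmp13 (8.55 to 11.4) and Mgp (5.24 to 12.2). Of these, Rgs5 and Mgp followed groups 4 and 1, and Saa3 and Mmp13 were highest in group 5. The rest of the 20 most variable genes included Mmp10, Ccl2, Ccl11, Dcn, Il1rl1, Hp, Serpine2 and Acta2, mitochondrial genes and Gm42418.

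Pairs of genes in the same cell followed these groups. Il1rl1 was detected in 95 of 129 Pdgfra-positive fibroblasts (73.6%) and in 5 of 88 others (5.68%). For Il11 the shares were 49.6% and 4.55%. Inhba was less exclusive, at 75.2% and 34.1%. Of the 68 Il11-positive cells, 48 also had Ptgs2, the inducible prostaglandin synthase, against 30 of the 149 others. Wnt5a was found in 17.6% of the Rgs5-positive cells and in 74.5% of the rest. Each of these orders was the same in every library. Detection depends on the depth of a cell, and these shares were not thinned.

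**Figure D3:**
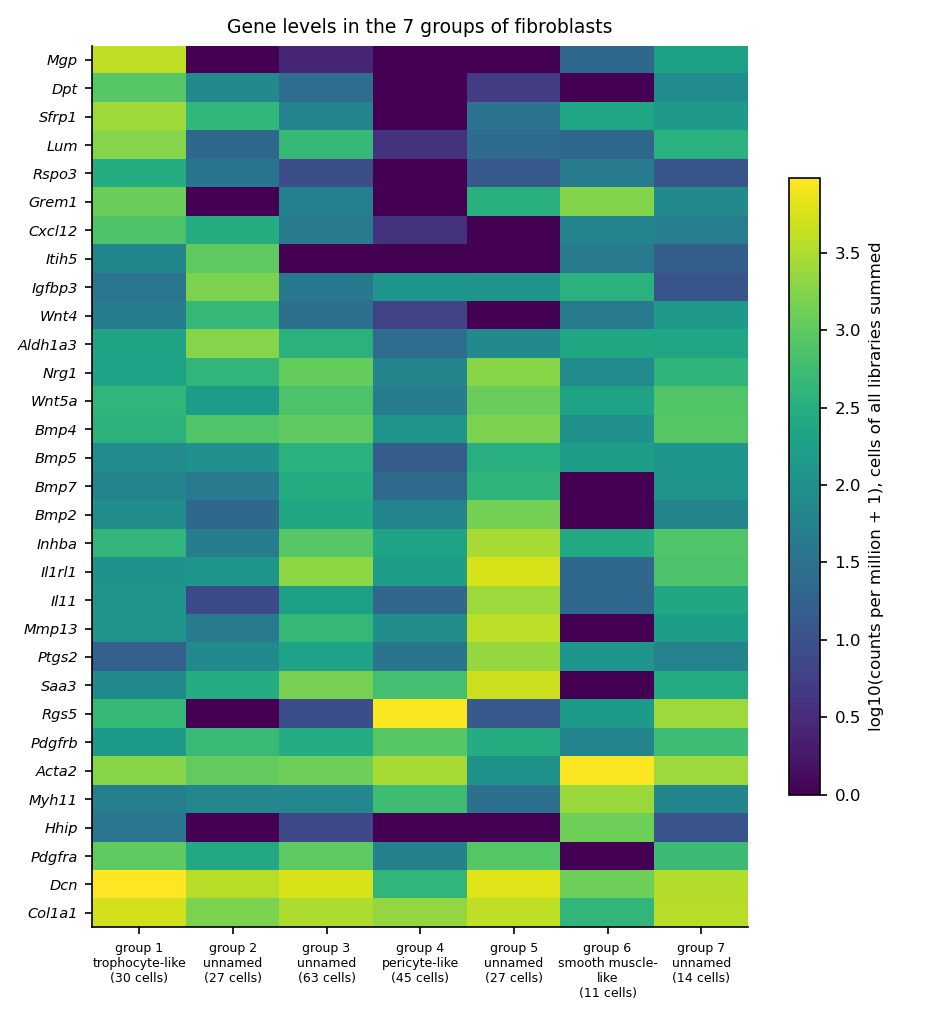
Levels of 31 genes (rows) in the 7 groups of fibroblasts (columns), as log10 of CPM plus 1 with the cells of all libraries summed. Pdgfra and Rgs5 were highest in different groups, 1009 CPM in group 1 and 8761 CPM in group 4, and Il11 reached 2472 CPM in group 5.

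Smaller signal classes were also present. The retinoid and steroid enzymes summed to 2093 and 2139 CPM in the ApcMin libraries and 1856 and 1431 CPM in the VApcMinL libraries, with Rdh10, which makes retinal for retinoic acid synthesis, at 269 to 386 CPM. The complement list was led by Serping1, the inhibitor of complement component 1, at 774 to 959 CPM. Ptch1, the Hedgehog receptor and target gene, had 124 and 319 CPM in the ApcMin libraries and 95.4 and 363 CPM in the VApcMinL libraries, higher in both kit 3 libraries. Ifitm3, an interferon-induced gene, had 2871 and 2617 CPM in the ApcMin libraries and 3055 and 2125 CPM in the VApcMinL libraries, and B2m, the light chain of class I antigen-presenting molecules, had 1601 and 938 CPM in the ApcMin libraries and 1993 and 356 CPM in the VApcMinL libraries. Ifitm3 and B2m were both lowest in VApcMinL replicate 2.

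The comparison of the groups asks whether loss of Lef1 in the epithelium goes with a different state of the neighbouring fibroblasts. UMIs were summed per library, and 6487 genes passed the count filter. In such sums, fewer cells of a type and less RNA per cell cannot be told apart. Xist alone was called by the edgeR quasi-likelihood test with the kit as a block (Benjamini-Hochberg adjusted p = 0.0149), 1 of 6487 genes or 0.0154%. It was at least 156-fold higher in VApcMinL, against a floor of 3 counts in each ApcMin library, and it belongs to the mismatch with the labelled sex described above. At an unadjusted p under 0.05 there were 207 genes, 84 with higher (1.29% of those tested) and 123 with lower values (1.9%), and without the kit block there were 64. DESeq2 called 3 genes on the same counts, Saa3, Cxcl1 and Ereg, and not Xist. With 1 library left out at a time and no block, edgeR called 7 genes (without VApcMinL replicate 1) to 17 genes (without ApcMin replicate 1 or without VApcMinL replicate 2), so the count depends on single libraries.

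Saa3 came closest to the threshold after Xist. It encodes serum amyloid A3, an acute phase protein that inflamed stromal cells secrete (chromosome 7, 46711998 to 46715700). Its level was 2490.0 and 922 CPM in the ApcMin libraries and 376 and 125 CPM in the VApcMinL libraries, so the groups did not overlap. Saa3 UMIs numbered 1792 in 28 cells and 511 in 16 cells in ApcMin, but 146 in 8 cells and 20 in 1 cell in VApcMinL. The log2 difference, VApcMinL over ApcMin, was -2.84 (SE 0.26), with -2.81 in kit 2 and -2.83 in kit 3, and the edgeR adjusted p was 0.0613. Over 20 alternative settings the adjusted p of Saa3 ran from 6.36e-18 to 1.00, it was called in 13, and its log2 difference stayed between -3.91 and -1.53. Without VApcMinL replicate 2 it was -2.23.

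The other 9 genes named as lower, which did not pass the test, held several inflammatory genes. Cxcl1, a chemokine that attracts neutrophils (chromosome 5, 90891241 to 90893115), had 805 and 146 CPM in the ApcMin libraries and 155 and 37.5 CPM in the VApcMinL libraries, a log2 difference of -2.33 (SE 0.30, edgeR adjusted p = 0.321). Ereg had a log2 difference of -2.15 (SE 0.40, edgeR adjusted p = 1.00). Ptgs2 had 306 and 785 CPM in the ApcMin libraries and 137 and 100 CPM in the VApcMinL libraries, a log2 difference of -2.00 (SE 0.42, edgeR adjusted p = 1.00). Ptgs2 and Ereg did not overlap between the groups, and Cxcl1 overlapped in that the kit 3 ApcMin value lay under the kit 2 VApcMinL value. In ApcMin replicate 2, 1 cell held 60.9% of the Ptgs2 UMIs. Saa3, Cxcl1, Ereg and Ptgs2 all had their highest level in group 5 (4803, 1853, 2926 and 2214 CPM). Group 5 held a smaller share of the fibroblasts in both VApcMinL libraries, where it had only 4 and 1 cells. Such shares are not strictly comparable between libraries, since each gene was centred within its library before clustering. The groups were formed from the same counts, so fewer such cells and lower levels of these genes cannot be told apart.

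The remaining lower genes were Adm, which encodes adrenomedullin, Dio2, a deiodinase that activates thyroid hormone, Adamdec1, the chemokine Cxcl12, Fosb and Jchain, at log2 differences from -1.16 (Adamdec1) to -2.62 (Jchain). Jchain moved with the free RNA described above, and its part in the result was not tested. Among the 10 genes named as higher, those after Xist were Wfdc18, Aspn, Lamb2, F3, Trpa1, Gnai1, Higd1b, Clca4b and Lrrn2, and none passed. Aspn, which encodes the matrix protein asporin, had 113 and 204 CPM in the ApcMin libraries and 304 and 388 CPM in the VApcMinL libraries, a log2 difference of 1.14 (SE 0.26, edgeR adjusted p = 1.00). F3, tissue factor, had 359.9 and 173 CPM in the ApcMin libraries and 673 and 531 CPM in the VApcMinL libraries, a log2 difference of 1.19 (SE 0.28, edgeR adjusted p = 1.00).

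**Figure D4:**
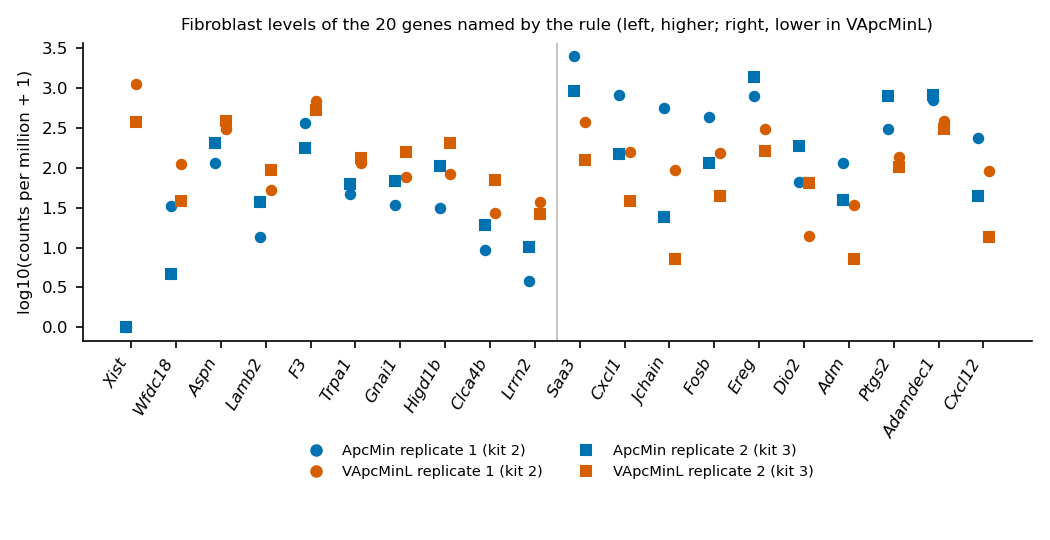
Fibroblast levels of the 10 genes named as higher (left of the line) and the 10 named as lower (right) in VApcMinL, as log10 of CPM plus 1, 1 point per library. Blue is ApcMin, orange VApcMinL, circles kit 2 and squares kit 3. Xist was at 0 in both ApcMin libraries, and the Saa3 points of the groups were apart in both kits.

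Of 30 inflammatory fibroblast genes, 22 were tested and 0 were called. Unadjusted p values were under 0.05 for 7, all with lower values in VApcMinL (Saa3, Cxcl1, Cxcl2, Cxcl12, Ptgs2, Ccl11 and Il33), against 1.9% of all tested genes in that direction. Without the kit block, 5 had lower values at that level. Members of the list are not independent, since Saa3, Cxcl1 and Ptgs2 all had their highest level in group 5. Values were lower in both kit pairs for 11 of the 22, against 24.5% of all genes, and without overlap for 8, against 10.8%. In the other direction, 1 was higher without overlap, against 11.2% of all genes. The list's median log2 difference was -0.55, with -0.24 in kit 2 and -1.65 in kit 3, where the median of all genes was -0.00355. It stayed below 0 in all 20 alternative settings, from -3.62 to -0.27, and the lowest was without VApcMinL replicate 1. The summed level was 11519 and 8328 CPM in the ApcMin libraries and 8219 and 4338 CPM in the VApcMinL libraries.

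Ccl11, the eosinophil chemokine eotaxin, had 1929 and 1299 CPM in the ApcMin libraries and 977 and 163 CPM in the VApcMinL libraries, a log2 difference of -1.88 (SE 0.45, edgeR adjusted p = 1.00). Ccl2, the monocyte chemokine, had 368 and 574 CPM in the ApcMin libraries and 338 and 0 CPM in the VApcMinL libraries, and 1 cell of ApcMin replicate 2 held 76.7% of its UMIs there. Il1rl1, Cxcl14 and Il11, which are among its most abundant members, had log2 differences of 0.23, -0.03 and 0.04, and the sign of the last pair changed in several alternative settings. For Il11, 1 cell held 89.5% of the UMIs of VApcMinL replicate 2.

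The promoters of Cxcl1 and Cxcl2, neighbouring chemokine genes on chromosome 5, are shown for their lower values in both kit pairs and for an NF-kB motif. Both hold the form of this motif that was searched for on both strands. It is shown in capitals, 71 and 97 bases before the start site. This form was in 3 of 26 promoters of the inflammatory list (11.5%, with Il6 as the third), against 0.411% of all 32851 promoters. It was in none of the promoters of Saa3 and Ptgs2. Other forms of the NF-kB motif were not searched for, so their absence from any promoter is not shown. These letters do not show that the factor was bound.
Cxcl1, chr5:90890995-90891294, plus strand: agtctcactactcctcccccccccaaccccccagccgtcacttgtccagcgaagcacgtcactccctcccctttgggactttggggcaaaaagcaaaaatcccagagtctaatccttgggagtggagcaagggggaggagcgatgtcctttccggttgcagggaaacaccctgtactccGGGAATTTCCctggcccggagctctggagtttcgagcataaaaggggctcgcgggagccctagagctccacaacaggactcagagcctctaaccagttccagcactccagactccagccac
Cxcl2, chr5:90903649-90903948, plus strand: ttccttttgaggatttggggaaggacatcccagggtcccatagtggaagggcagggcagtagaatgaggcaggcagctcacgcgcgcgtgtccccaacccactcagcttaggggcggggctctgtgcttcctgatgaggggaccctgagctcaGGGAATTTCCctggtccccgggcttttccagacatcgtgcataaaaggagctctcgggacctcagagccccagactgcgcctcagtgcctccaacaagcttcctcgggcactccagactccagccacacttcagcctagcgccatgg

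**Figure D5:**
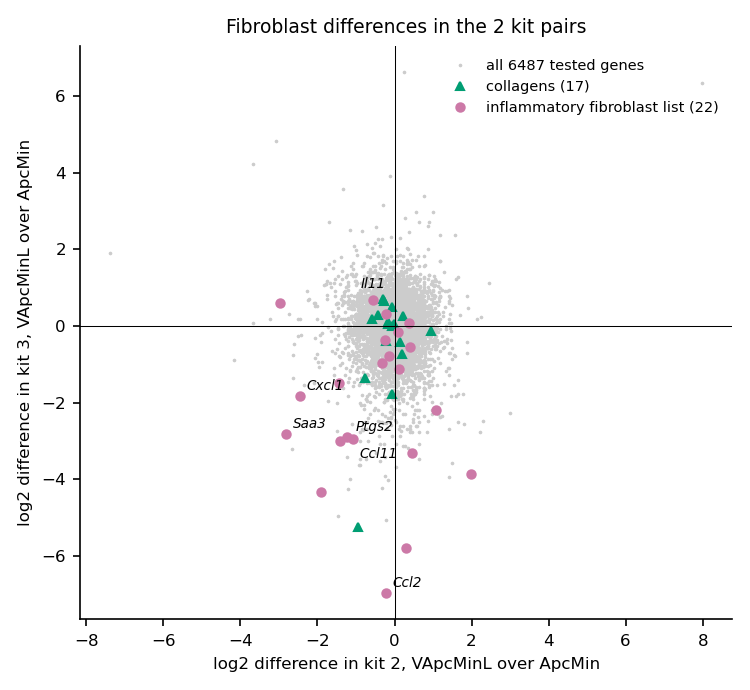
Log2 difference of each tested gene between the VApcMinL and the ApcMin fibroblasts in kit 2 (x axis) and kit 3 (y axis), with the inflammatory list and the collagens coloured. Saa3 lay at -2.81 and -2.83, whereas Ccl2 lay at -0.22 and -6.97, where VApcMinL replicate 2 had 0 UMIs.

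Other lists had 0 called genes, apart from Xist in the sex-linked list. Lower values were not particular to the inflammatory list. Of 7 tested retinoid and steroid enzymes, 4 were lower without overlap, against 10.8% of all genes, and 2 had lower values at an unadjusted p under 0.05. Their median log2 difference was -0.64, with -0.29 in kit 2 and -0.97 in kit 3. The 8 tested complement genes had a median of -0.53, with -0.05 in kit 2 and -0.97 in kit 3, and 0 genes under 0.05. Of 11 tested trophocyte-like genes, 3 had unadjusted p values under 0.05 (Ackr3, Efemp1 and Clec3b, all lower, against 1.9% of all genes), and 1 without the kit block. The list's median log2 difference of -0.85 was not stable, at 0.06 without ApcMin replicate 1, 0.16 after thinning (3 genes), -0.11 without VApcMinL replicate 2 and -2.58 without VApcMinL replicate 1. Of 10 pericyte-like genes, 2 were under 0.05, Higd1b and Abcc9, both with higher values, against 1.29% of all genes. In both kit pairs 5 were higher, against 23.7% of all genes. The median log2 difference of these genes was 0.35, with -0.08 in kit 2 and 0.91 in kit 3. It was not stable, at -0.24 without VApcMinL replicate 2. The pericyte-like list summed to 2618 and 4369 CPM in the ApcMin libraries and 2857 and 7088 CPM in the VApcMinL libraries, which moved with the share of group 4. Of 22 immediate early and stress genes, 7 were under 0.05, all lower, against 1.9% of all genes, and 0 were lower at that level without the kit block. Their median log2 difference was -0.51, but 0.66 without ApcMin replicate 1 and -0.10 without VApcMinL replicate 2. The list summed to 12850.1 and 3835 CPM in the ApcMin libraries and 9106 and 4000.0 CPM in the VApcMinL libraries, so kit 2 stood above kit 3 in both groups. The 17 collagens had a median log2 difference of -0.07 and 1 gene under 0.05, Col14a1 (135 and 169.6 CPM in the ApcMin libraries and 72.2 and 0 CPM in the VApcMinL libraries). The 16 cancer-associated fibroblast matrix genes had a median of 0.15 and 0 genes under 0.05.

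The share of pericyte-like cells was higher in VApcMinL in both kits, by little in kit 2, as given above. The comparison was also made without the pericyte-like and the smooth muscle- and myofibroblast-like cells, a choice made after seeing the data. Of 5641 genes, 27 were then called, 6 higher and 21 lower. The lower ones included Saa3 (log2 difference -2.62, edgeR adjusted p = 3.56e-11), Cxcl1 (-2.77, adjusted p = 1.68e-07), Ptgs2 (-2.51, adjusted p = 2.56e-08), Ereg (-2.28, adjusted p = 2.56e-08), Ccl11 (-1.76, adjusted p = 4.26e-05) and Hp (-1.41, adjusted p = 0.00420). They also included Jchain (-2.65, adjusted p = 4.31e-05), which moved with the free RNA, and the Y-linked Ddx3y (-4.69, adjusted p = 3.99e-05), which belongs to the mismatch with the labelled sex. The rest were Alpl, Dio2, Lrat, Car2, Lpl, Cxcl2, Adm, Col14a1, Errfi1, Fosb, Ccl2, Plpp3 and Hbb-bs. Higher were Xist, Ibsp, Apob, Dmp1, Aspn and F3. The cells left out were groups formed from these same counts, so the adjusted p values of this fit are no separate support for the main one. Only 9 cells of VApcMinL replicate 2 remained in that fit. Hbb-bs, a haemoglobin gene that rested on 1 cell of ApcMin replicate 1, had a log2 difference of -7.91 (edgeR adjusted p = 1.95e-29). A very small adjusted p in this fit can therefore rest on 1 cell.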

How the data were processed

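Single-cell RNA was counted in 4 adenoma libraries. The authors deposited raw UMI counts per gene and barcode for all barcodes. Processing notes name Cell Ranger 2.1.1 on mm10 and Seurat 3.1.1, while the headers of the kit 3 matrices name Cell Ranger 3.1.0, so a gene can be counted differently between kits. Library totals ran from 44660305 to 128247396 UMIs, and the 27514 genes common to all tables were used. Members, gene lists and tests were chosen with earlier results of these data known.

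Because cells of 1 library share their source, the fibroblast UMIs of each library were summed. The sums entered edgeR 4.0.16 in R 4.3.3 (quasi-likelihood test, TMM scaling, minimum count of 10, kit as a block), with Benjamini-Hochberg adjustment and calls at 0.05. With the kit as a block, P values measure how far the differences of the 2 kit pairs disagree, with information shared over genes. They do not measure the full spread between libraries, which were not stated to come from separate animals. SEs were taken from the log2 difference and its F statistic, and kit-pair differences used a prior count of 2. CPM was the sum scaled to the common total. Replicate numbers mark a shared kit in the labels, and libraries of 1 kit deviated together from their group means (r = 0.45 across 6487 genes, which are not independent). In simulated counts (dispersion 0.1, no kit effect), the test recovered 76 of 197 genes changed by 2 on the log2 scale with 1 false call (6129 genes run), and 177 of 192 changed by 3 with 6 false calls (6091 run). The common dispersion fitted to the real sums was 0.042. Changed genes were drawn only from the better counted ones, and genes resting on 1 cell were not simulated. These rates therefore do not carry over to the real comparison.

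Cells were clustered with scanpy 1.11.5, after each gene was centred within its library. Doublets were not removed in the main fit, and Scrublet marked 10 fibroblasts of ApcMin replicate 1 and 1 of ApcMin replicate 2. Shares of positive cells used cells thinned to 1000 UMIs. Genes were named by a rule: Lef1, Xist and the rule's 11 genes, the 10 strongest in each direction with the same sign in both kits and at least 20 CPM, the most abundant members of each list, 30 leading genes and the 20 most variable genes. Others were chosen after their values were seen. Promoters came from RefSeq (GRCm38.p6), and gene positions from GENCODE vM21 (GRCm38).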

Additional observations from a re-analysis of the deposited data

How the results depend on the processing

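The difference in fibroblast share kept its sign under every alternative, from -2.34 to -0.698 points of kept cells and from -9.21 to -3.11 points of non-epithelial cells when 1 library was left out. The number of called genes, 1 in the main fit, was less stable. It was 5 at a floor of 2000 UMIs or at least 10 marker UMIs, 2 at a floor of 500 UMIs, an epithelial limit of 0.1%, all 5 markers, DESeq2 size factors or TMM without collagen, ribosomal protein and mitochondrial genes, and 7 without Scrublet doublets. It was 3 by DESeq2, 10 at a minimum count of 5, 43 with no filter and, in an alternative added after seeing the data, 27 without pericyte-like and smooth muscle-like cells. The cause was not tested. Leaving out 1 library, which also drops the replicate block, gave 7 to 17 calls: 17 without ApcMin replicate 1, 7 without VApcMinL replicate 1, 15 without ApcMin replicate 2 and 17 without VApcMinL replicate 2, with the lone library assumed to vary like the others. Without the replicate block 1 gene was still called, but genes with an unadjusted p under 0.05 went from 207 to 64, and those with lower values from 7 to 0 in the immediate early, from 3 to 1 in the trophocyte-like and from 7 to 5 in the inflammatory list. Of the 20 genes named in the comparison, 2 changed sign, both without ApcMin replicate 1: Jchain (1.33) and Cxcl12 (0.48). Of 6 further genes given with a log2 difference, the near-0 values of 2 changed sign. Cxcl14 came to 0.013 at an epithelial limit of 0.1%, 0.014 with no replicate block, 0.046 with all 5 markers, 0.27 after thinning, 0.092 without pericyte-like and smooth muscle-like cells, 0.49 without ApcMin replicate 1 and 0.45 without VApcMinL replicate 2. Il11 came to -1.13 with all 5 markers, -0.065 without Scrublet doublets, -0.059 with no filter, -0.34 without ApcMin replicate 2 and -0.19 without VApcMinL replicate 2. Without thinning, mean shares of positive cells moved to 59.3% for Pdgfra, 71.2% for Acta2, 30.4% for Il11 and 62.1% for Inhba. The 17 cells of VApcMinL replicate 2 limit every kit 3 value.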
